A study of Homo sapiens with 20 samples.

Results

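The 10 S100 genes S100A2, S100A3, S100A4, S100A6, S100A10, S100A11, S100A13, S100A14, S100A16 and S100P were followed through the gene counts of TPC-1, an established line of human papillary thyroid carcinoma cells. They were taken by name, and all 10 were found among the 54261 genes of the table. After 48 h of coculture with PMN-MDSCs, the polymorphonuclear kind of myeloid-derived suppressor cell, which resembles a neutrophil and holds back T cells, TPC-1 cells gave 6 RNA-seq libraries, and untreated TPC-1 cells gave 4 control libraries. The labels do not say where the PMN-MDSCs came from, how the cells shared the culture or whether they were parted before RNA was taken. They also do not name separate cultures, and each p-value below therefore rests on the spread among libraries that may be technical replicates.

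S100 proteins are small calcium sensors with a pair of EF-hand loops. Most act as dimers that, on binding calcium, open a surface for a partner protein such as an annexin or a myosin. In epithelia they take part in membrane repair, motility and differentiation, and some are secreted and act on receptors such as AGER and TLR4. Most of their genes lie side by side in the epidermal differentiation complex of chromosome 1, next to the genes of the cornified envelope. S100A8, S100A9 and S100A12, the calgranulins, are the S100 proteins that neutrophils and monocytes are known for.

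Library totals ran from 40237801 to 48197608 counts, and the 10 S100 genes took 0.206% to 0.259% of each coculture library and 0.208% to 0.251% of each control library. On the first principal component of all genes tested (39.3% of the variance), coculture 1 scored -66.1 and coculture 2 scored -60.6, while scores of the remaining 8 libraries ran from 0.908 to 31.8. Coculture 1 also held 388 counts of DCN and 168 of POSTN, matrix genes of fibroblasts that had 0 counts in the other 9 libraries. Of the 9 S100 genes tested, S100A4, S100A6, S100A13 and S100A16 were higher in both coculture 1 and 2 than in each of coculture 3 to 6, S100A2, S100A3 and S100A10 were lower in both, and S100A11 and S100A14 overlapped. This split of the cocultures was made from the data and was not tested. Without coculture 1 and 2, the log2 fold changes of coculture minus control ran from -0.33 for S100A2 to 0.10 for S100A10, with edgeR adjusted p-values from 0.328 to 0.941.

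Of the 10 genes, 9 were abundant enough to be tested and 0 differed between the coculture and the control libraries with edgeR at an adjusted p under 0.05, where 1.32% of the 15629 genes tested did. DESeq2 and limma-voom also called 0 of the 9, where they called 2.81% and 1.16% of all genes. At an unadjusted p under 0.05 each of the 3 tools singled out 1 gene, S100A2, which had 0.751 times the control level in coculture, and with edgeR 9.66% of all genes passed that mark. The groups overlapped for all 9 genes, while 3.62% of all genes tested had ranges without overlap, 2.45% with each coculture library above each control and 1.17% with each below. The median log2 fold change of the 9 was 0.028, beside 0.0082 for all genes tested. What separated the 10 genes was their level, which ran from among the most abundant messages of the cells to none detectable.

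Levels of different genes were compared as CPM, the count scaled to a common library size (TMM), divided by the transcript length in kb that the deposited table gives. S100A11, which binds annexin A1 and restrains keratinocyte growth, averaged 668 ± 68.2 CPM per kb in coculture (SD, n = 6) and 612 ± 77.2 in controls (n = 4). S100A16, a widely expressed member that binds little calcium at its first loop, averaged 627 ± 57.6 in coculture and 615 ± 30.3 in controls, in the same unit. S100A6, called calcyclin for its rise in cycling cells, averaged 598 ± 141 CPM per kb in coculture and 590 ± 63.5 in controls. These 3 stood at ranks 89, 97 and 100 of 20148 protein-coding genes by their mean over the 10 libraries. Their order was not fixed, since S100A11 lay above S100A16 in 7 libraries, and S100A16 above S100A6 in 7 as well.

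A second tier lay below them without overlap. S100A2, a nuclear S100 protein of basal epithelial cells, averaged 168 ± 18.6 CPM per kb in coculture and 223 ± 62.4 in controls. S100A13, which carries FGF1 out of the cell, averaged 187 ± 14.8 in coculture and 179 ± 19.8 in controls, and S100A10, the annexin A2 partner that needs no calcium, averaged 180 ± 22.6 CPM per kb in coculture and 176 ± 18.5 in controls. The ranges of these 3 genes overlapped one another, and S100A2 lay above S100A13 in 6 of the 10 libraries. Of the summed level per kb of the 10 genes, S100A11 made up 26.4% to 29.6% in coculture and 24.4% to 26.2% in controls, and S100A2 5.21% to 8.12% in coculture and 7.33% to 10.8% in controls. The S100A11 shares did not overlap and those of S100A2 and of each other member did, in a comparison chosen after the values were seen and not tested. Shares are parts of 1 sum, so a higher S100A2 lowers the share of the rest. The S100A11 level itself overlapped, at 564 to 757 CPM per kb in coculture and 541 to 702 in controls.

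S100A4, the metastasis-associated ligand of non-muscle myosin that also marks fibroblasts, was far lower, at 7.76 ± 3.09 CPM per kb in coculture and 7.42 ± 1.73 in controls. S100A3, a protein of the hair cuticle, averaged 3.50 ± 0.645 CPM per kb in coculture and 3.91 ± 1.13 in controls, and lay below S100A4 in 9 of the 10 libraries. S100A14, an epithelial member, was at 0.192 ± 0.0932 CPM per kb in coculture and 0.215 ± 0.0453 in controls, from 56 counts over the 6 coculture libraries and 43 over the 4 controls. S100P, a ligand of ezrin that is abundant in placenta, in pancreatic carcinoma and in neutrophils, had 1 count over the coculture libraries, in coculture 3, and 0 over the controls. At this depth 3 counts in a library, taken as the limit that a count of 0 allows, correspond to 0.0632 to 0.0758 CPM in coculture and 0.0641 to 0.0741 CPM in controls, before division by length, so S100P was not detectable above that level.

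**Figure D1:**
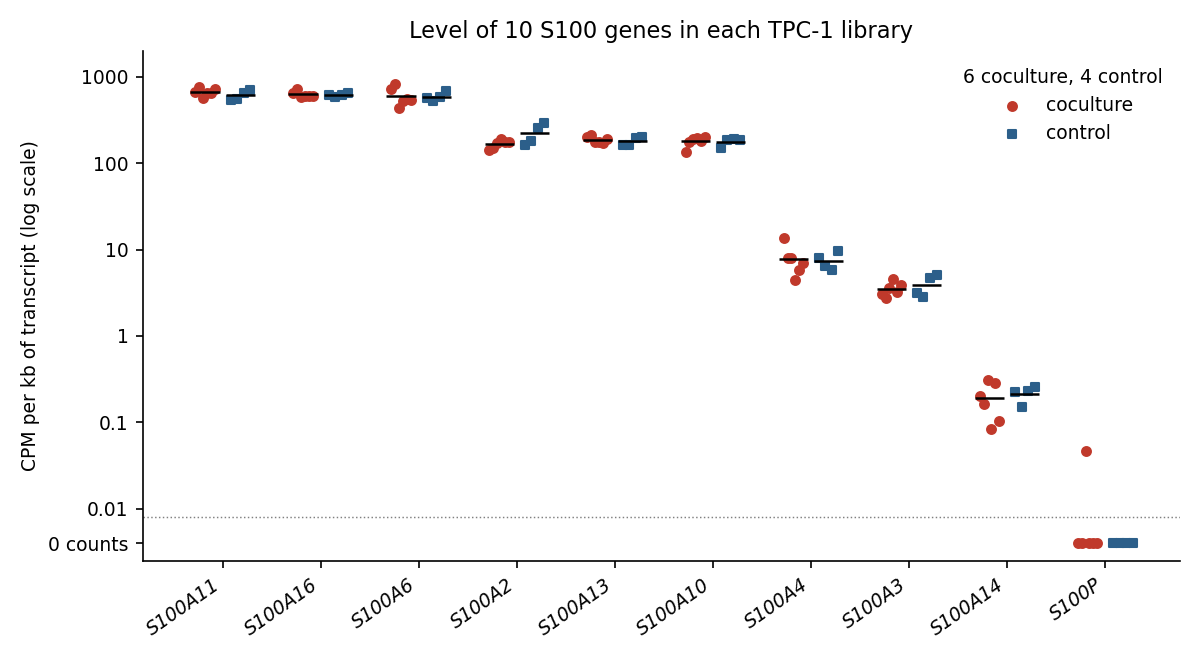
Level of the 10 S100 genes in CPM per kb of transcript (log axis, with 0 counts drawn below the dotted line) in the 6 coculture libraries (circles) and the 4 control libraries (squares), with a bar at each group mean. S100A11, S100A16 and S100A6 lie between 433 and 817, S100A2, S100A13 and S100A10 between 136 and 293, and S100A14 and S100P near or at 0, with the groups overlapping for each gene.

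The label of the set as epithelial was read against markers of epithelial cells. Of 15 such genes, 7 had a control mean of at least 1 CPM. Keratin genes KRT8 (240 ± 22.4 CPM in coculture and 240 ± 28.6 in controls) and KRT18 (356 ± 58.6 CPM in coculture and 350.0 ± 43.9 in controls), the thyroid factor PAX8 (625 ± 107 CPM in coculture and 508 ± 11.2 in controls) and the laminin chain LAMB3 (2300 ± 334 CPM in coculture and 2129 ± 308 in controls) were all present. The junction gene CLDN1 was higher, at 338 ± 58.1 CPM in coculture and 175 ± 27.3 in controls (log2 fold change 0.95 ± 0.14, edgeR adjusted p = 0.00305), as was the epithelial factor ELF3, at 2.43 to 27.4 CPM in coculture and 0.340 to 1.11 in controls (log2 fold change 4.07 ± 0.76, edgeR adjusted p = 0.0174), where 1.14% of all genes were called higher. ELF3 was at 27.4 and 18.1 CPM in coculture 1 and 2 and at 2.43 to 6.12 CPM in coculture 3 to 6. Without coculture 1 and 2 its log2 fold change was 2.81 ± 0.36 (edgeR adjusted p = 0.00126). The ELF3 call was lost with limma-voom, without a filter, and on leaving out control 1, 3 or 4, and the CLDN1 call with the replicate block (adjusted p from 0.0781 to 0.164 in these fits). SFN was higher in each coculture library than in each control but was not called (edgeR adjusted p = 0.0968). KRT19, another keratin, was at 0.966 ± 0.336 CPM in coculture and 0.594 ± 0.279 in controls. EPCAM, CDH1, CLDN4 and CLDN7, adhesion genes that were not tested for their low counts, had means of 0.0482, 0.0193, 0.00397 and 0.209 CPM in coculture and of 0.114, 0, 0.0424 and 0.0346 CPM in controls. The list was thus mixed, with some keratin and junction genes abundant and others near or at 0.

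The region before the start of a gene is shown for 5 members, to set neighbours with very different levels side by side and to show the gene with the smallest p. S100A16 and S100A14 lie 1086 bases apart, and S100A6 and S100A4 lie 7377 bases apart on either side of S100A5. Each sequence is the 250 bases before the most upstream start in RefSeq (GRCh38.p14), which listed all 10 members. The deposited table places some starts differently. By its coordinates the windows of S100A14 and S100A6 lie within the genes (153614255 to 153616917 and 153534599 to 153536241). The S100A16 window overlaps its gene, which ends at 153613168. Capitals mark the letters GGGCGG (the core of the GC box), TGANTCA (the AP-1 element) or TATAAA (the TATA box), searched on both strands.
S100A16 (chr1:153613138-153613387, minus strand): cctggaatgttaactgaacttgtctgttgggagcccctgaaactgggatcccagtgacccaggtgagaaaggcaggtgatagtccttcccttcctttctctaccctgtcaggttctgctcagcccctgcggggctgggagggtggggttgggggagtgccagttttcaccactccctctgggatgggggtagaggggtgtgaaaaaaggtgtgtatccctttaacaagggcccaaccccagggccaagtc
S100A14 (chr1:153616326-153616575, minus strand): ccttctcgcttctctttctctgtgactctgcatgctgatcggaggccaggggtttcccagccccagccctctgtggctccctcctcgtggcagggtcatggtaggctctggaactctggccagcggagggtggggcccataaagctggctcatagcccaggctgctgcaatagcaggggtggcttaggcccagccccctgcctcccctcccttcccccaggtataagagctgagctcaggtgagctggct
S100A6 (chr1:153535992-153536241, minus strand): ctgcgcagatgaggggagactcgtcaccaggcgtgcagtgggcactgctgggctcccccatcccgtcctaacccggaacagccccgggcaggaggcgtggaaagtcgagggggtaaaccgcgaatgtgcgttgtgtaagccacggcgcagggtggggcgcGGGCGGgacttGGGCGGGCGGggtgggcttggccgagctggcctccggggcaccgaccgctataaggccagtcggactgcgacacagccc
S100A4 (chr1:153545807-153546056, minus strand): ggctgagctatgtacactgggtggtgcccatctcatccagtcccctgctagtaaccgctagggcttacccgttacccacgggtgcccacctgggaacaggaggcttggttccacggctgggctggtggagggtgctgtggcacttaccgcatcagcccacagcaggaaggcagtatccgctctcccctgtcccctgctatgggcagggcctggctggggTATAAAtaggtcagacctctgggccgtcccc
S100A2 (chr1:153565845-153566094, minus strand): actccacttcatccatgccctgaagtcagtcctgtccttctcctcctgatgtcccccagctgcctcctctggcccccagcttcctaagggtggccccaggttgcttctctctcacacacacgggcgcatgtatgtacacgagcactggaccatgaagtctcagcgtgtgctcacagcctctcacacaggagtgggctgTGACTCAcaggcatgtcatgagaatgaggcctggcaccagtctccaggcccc

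The S100A6 window held 24 CpG pairs and 3 GGGCGG matches, of which 2 overlapped, at 90, 79 and 75 bases before the start. The S100A4 window held 7 CpG pairs and TATAAA at 31 bases before the start, and the S100A2 window held 4 CpG pairs and TGANTCA at 52 bases before the start. The windows of S100A16 and S100A14 held 1 and 4 CpG pairs and none of the 3 motifs. Over all 35116 windows of that length in the table, the median was 11 CpG pairs, and 42.6% held GGGCGG, 10.7% TATAAA and 6.57% TGANTCA. Per kb of transcript, S100A16 was 1848 to 7263 times S100A14 in coculture and 2555 to 3847 times in controls, and S100A6 was 53.4 to 118 times S100A4 in coculture and 70.4 to 101 times in controls. A match of letters is a description of the window and not a site of binding, and both S100A16 and S100A2 have 2 listed starts. The other window of S100A16 held 1 GGGCGG, and that of S100A2 held none of the 3 motifs.

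The comparison of coculture with control asked whether the S100 genes of TPC-1 cells differ after 48 h with PMN-MDSCs. In bulk libraries, fewer cells of a type and less RNA per cell cannot be told apart. S100A2, the nuclear member, had the smallest p of the 9 tested. Its level was 136 CPM in the lowest, 168 in the median and 183 in the highest coculture library, against 157, 173, 248 and 283 CPM in controls 1 to 4. Controls 3 and 4 lay above each coculture library, and controls 1 and 2 lay within the coculture range. The log2 fold change was -0.41 ± 0.16 (SE, 95% interval -0.75 to -0.074) with an edgeR adjusted p of 0.375. Leaving out control 4 gave -0.26 and leaving out control 1 gave -0.54, with edgeR adjusted p-values of 0.711 and 0.171. Without coculture 1 and 2, its lowest cocultures, it was -0.33 ± 0.16 (edgeR adjusted p = 0.403).

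S100A6 showed the opposite kind of spread, within the coculture group. It was at 490 and 558 CPM in coculture 1 and 2 and at 296 to 380 CPM in coculture 3 to 6, against 391, 361, 397 and 464 CPM in controls 1 to 4. The 2 highest and the single lowest of the 10 libraries were thus all cocultures, and the group means, 409 ± 96.5 CPM in coculture and 403 ± 43.3 in controls, lay close together. The log2 fold change was 0.020 ± 0.16 (SE, 95% interval -0.32 to 0.36, edgeR adjusted p = 0.977). Without coculture 1 and 2 it was -0.21 ± 0.093 (edgeR adjusted p = 0.328). The fibroblast genes DCN and POSTN had 0 counts in coculture 2, the library with the most S100A6. COL1A1, LUM and PDGFRB, also listed as fibroblast markers, were at 5.73, 2.38 and 1.09 CPM there. The part of fibroblast transcripts in the S100A6 level was not tested.

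S100A4 was 7.57 CPM in coculture 1, its highest library, and 2.50 to 4.55 CPM in the other 5 cocultures, against 4.44, 3.61, 3.25 and 5.44 CPM in controls 1 to 4. Coculture 1 was the library with the most fibroblast transcripts. The 8 fibroblast markers summed to 148 CPM there, against 3.30 to 9.29 CPM in the other cocultures and 3.32 to 6.71 CPM in controls. Over the controls, 3 of the 8 markers had no count, DCN, POSTN and FAP. The part of these transcripts in the S100A4 level was not tested. The log2 fold change of S100A4 was 0.064 ± 0.27, and -0.16 ± 0.22 without coculture 1 (edgeR adjusted p = 0.961 and 0.930).

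**Figure D2:**
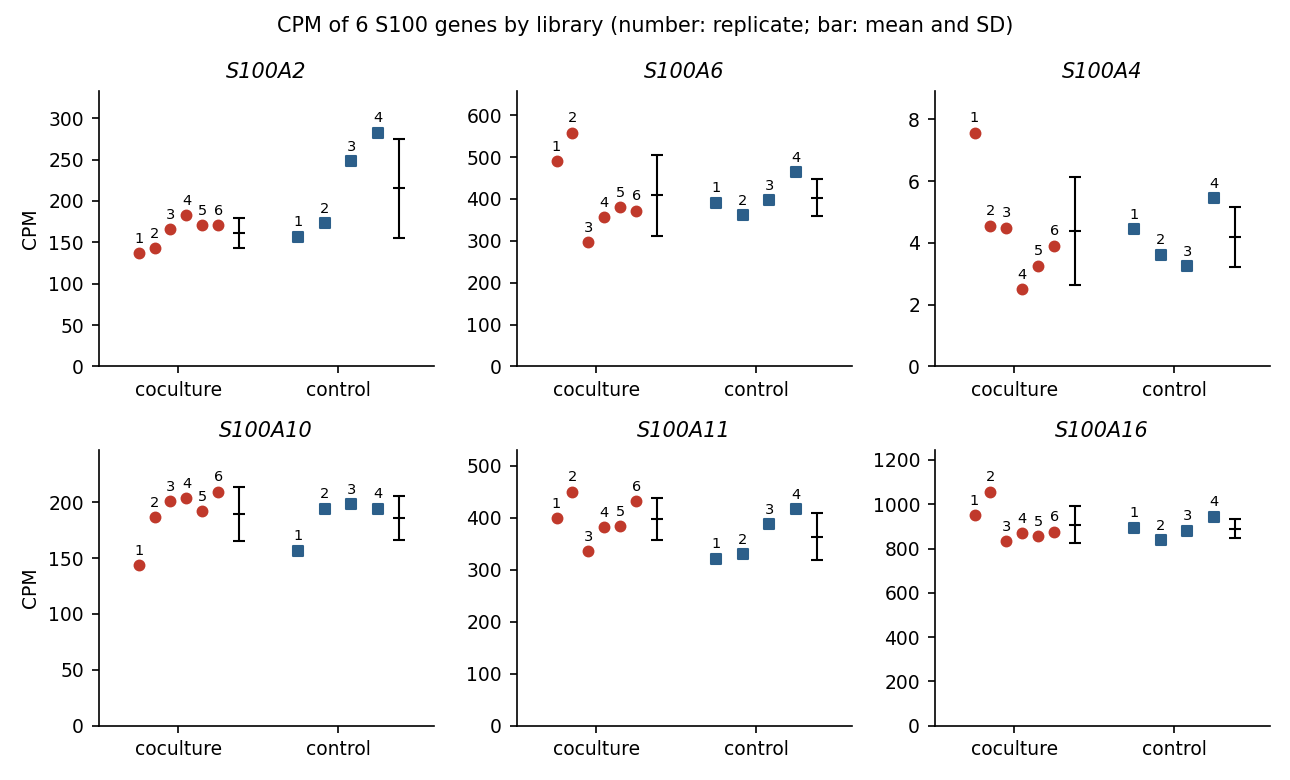
CPM of 6 S100 genes in each coculture library (circles) and each control library (squares), with the replicate number above each point and the group mean and SD as a bar. S100A2 reaches 248 and 283 in controls 3 and 4, S100A6 reaches 490 and 558 in coculture 1 and 2, and S100A4 reaches 7.57 in coculture 1.

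For 4 other abundant members the intervals were narrow. S100A11 ran from 335 through a median of 391 to 450 CPM in coculture, against 321, 330, 387 and 417 CPM in controls, a log2 fold change of 0.13 ± 0.10 (edgeR adjusted p = 0.738). S100A16 ran from 832 through 872 to 1056 CPM in coculture, against 894, 838, 881 and 944 CPM in controls. Its 95% interval for the ratio of coculture to control, 0.901 to 1.15, was the narrowest of the 9. Coculture 2 was the highest library for both genes.

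S100A10 ran from 144 through 197 to 209 CPM in coculture, against 157, 194, 198 and 194 CPM in controls. Replicate 1 was the lowest library in each group. Its log2 fold change was 0.028 ± 0.11, with a 95% interval of -0.21 to 0.27. S100A13 ran from 190 through 203 to 231 CPM in coculture, against 179, 180, 213 and 220 CPM in controls, a ratio of 1.04 with a 95% interval of 0.909 to 1.19. The interval of each of these 4 abundant genes lay within 0.863 to 1.27 times the control level.

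The scarce members gave wider intervals. S100A3 ran from 2.04 through 2.49 to 3.35 CPM in coculture, against 2.29, 2.08, 3.44 and 3.75 CPM in controls, and its ratio of 0.893 had a 95% interval of 0.645 to 1.24. As with S100A2, controls 3 and 4 were its highest libraries. S100A14 ran from 0.0951 through 0.209 to 0.358 CPM in coculture, against 0.256, 0.173, 0.267 and 0.294 CPM in controls, and its ratio of 0.887 had a 95% interval of 0.473 to 1.66. At 4 to 15 counts per library, no difference of S100A14 was called (edgeR adjusted p = 0.924). That interval is the uncertainty of the ratio and not a limit of detection.

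**Figure D3:**
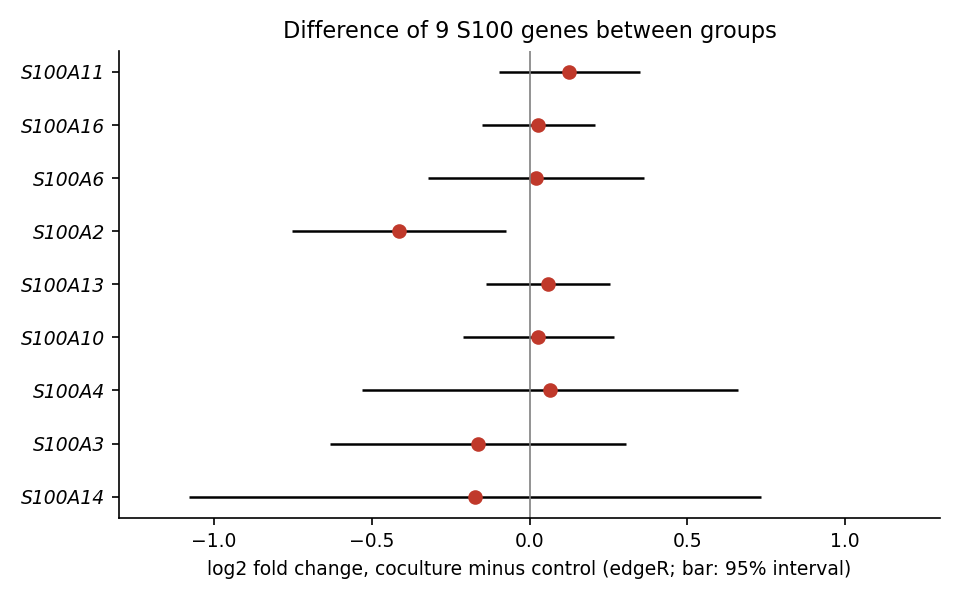
Log2 fold change of coculture minus control (points) with its 95% interval (bars) from edgeR for the 9 S100 genes tested, in order of their level per kb. The interval of S100A2, -0.75 to -0.074, lies below 0 while its adjusted p is 0.375, and the other 8 intervals include 0.

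The spread of the genes over all 10 libraries was set beside that of other abundant genes. Among 2220 genes with a mean of at least 100 CPM the median SD of log2 CPM was 0.16. S100A2 had an SD of 0.33, larger than 90.9% of them, and S100A6 0.26, larger than 81.6%. S100A16 had 0.10, larger than only 17.8%, and S100A13 0.13, larger than 31.2%. S100A10 and S100A11 stood near the middle, at 55.2% and 52.1%.

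Among all genes tested, those with the pattern most like S100A2 over the 10 libraries were FTH1, the ferritin heavy chain, its pseudogene FTH1P7, ITFG2 and LY6K. Likeness was the root mean square difference of log2 CPM after each gene was centred on its own mean, which was 0.090 for FTH1, 0.11 for FTH1P7, 0.12 for ITFG2 and 0.13 for LY6K. FTH1 was at 3386, 3762, 3811, 4282, 4307 and 4189 CPM in coculture 1 to 6, against 3791, 4650, 5796 and 6079 CPM in controls 1 to 4. Controls 3 and 4 were its highest libraries, as for S100A2, but FTH1 was chosen for its likeness over these libraries, so nothing is read from this. Reads of FTH1 and FTH1P7 may be split between near-identical copies. S100A3 was the S100 gene nearest to S100A2, with a difference of 0.17, at rank 56 of 15628 genes. S100A11, the member with the next smallest p, was nearest to CPSF3L (0.051), C19orf60 (0.053), MYDGF (0.059) and CD81 (0.060), and S100A13 was its nearest S100 gene at 0.074, at rank 22.

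Known partners and receptors of S100 proteins were mostly well expressed. Of the 18 tested, 0 were called by edgeR or limma-voom, which called 1.32% and 1.16% of all genes tested. DESeq2 called 1, TLR4, and 2.81% of all genes, and all 3 tools gave 3 of the 18 an unadjusted p under 0.05, which 9.66% of all genes had with edgeR. TLR4, a receptor for secreted S100A8 and S100A9, was at 13.6 ± 1.25 CPM in coculture and 18.4 ± 2.81 in controls, with each coculture library below each control. Its edgeR adjusted p was 0.143 and its DESeq2 adjusted p 0.0200. EZR, the membrane linker ezrin that S100P binds, was at 399 ± 57.5 CPM in coculture and 508 ± 64.4 in controls (edgeR adjusted p = 0.301). ANXA2, the partner of S100A10, was at 1963 ± 205 CPM in coculture and 1698 ± 86.5 in controls (edgeR adjusted p = 0.456).

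ANXA6 and ANXA11, genes of other annexins, had log2 fold changes of 0.24 ± 0.12 and 0.15 ± 0.10 and edgeR adjusted p-values of 0.571 and 0.680. ANXA1, the partner of S100A11, had a log2 fold change of -0.019 ± 0.11, and the giant scaffold gene AHNAK, whose protein holds the complex of annexin A2 and S100A10, was at 1110 ± 148 CPM in coculture and 1270 ± 311 in controls (edgeR adjusted p = 0.970 and 0.717). Per kb of transcript ANXA2 averaged 395 ± 41.1 in coculture and 341 ± 17.4 in controls, above S100A10. AGER, the receptor for advanced glycation end products, had 0 counts in all 10 libraries. TP63, the regulator of basal epithelial genes, had 3 counts over the cocultures and 1 over the controls.

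Among 10 other calcium-binding genes tested, 1 was called, lower, and 0 higher. CALM2 and CALM3, which encode calmodulin, had log2 fold changes of -0.045 ± 0.10 and 0.16 ± 0.12. SRI, CAPN1 and PDCD6, genes of penta-EF-hand proteins, had log2 fold changes of 0.29 ± 0.11, 0.17 ± 0.10 and -0.078 ± 0.087. None of these 5 was called, with edgeR adjusted p-values from 0.394 for SRI to 0.918 for CALM2. The gene called was FLG, which encodes profilaggrin, a protein of the cornified layer with an S100 domain fused to its repeats. It was lower, at 9.36, 5.31, 4.75, 4.02, 9.30 and 4.29 CPM in coculture 1 to 6, against 17.5, 25.2, 12.4 and 12.1 CPM in controls 1 to 4.

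FLG had a log2 fold change of -1.45 ± 0.29 (edgeR adjusted p = 0.0286), where 0.186% of all genes were called lower. The call was lost with no filter, without coculture 2, 3, 4 or 6, without control 1 or 2 and in replicates 1 to 4 alone, with edgeR adjusted p-values from 0.0534 to 0.108. FLG-AS1, the antisense gene that overlaps it, was at 7.81 ± 1.75 CPM in coculture and 11.3 ± 0.682 in controls (edgeR adjusted p = 0.254), and without a stated strand setting the reads of the pair cannot be told apart.

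Of the other 11 S100 genes, 4 had no count in any library and 3 passed the filter on low counts, S100A9, S100A1 and S100A5. S100A9 passed it through the coculture libraries alone and was called higher, so no share of the 3 is read from it. S100A9, a calgranulin that makes up much of the protein of neutrophils, was at 0.757, 0.316, 1.86, 0.737, 0.809 and 1.11 CPM in coculture 1 to 6, from 235 counts, and had 1 count over the 4 controls. Its edgeR log2 fold change was 6.75 ± 0.81 (adjusted p = 0.000998), and the ratio of the summed counts, scaled by library size, was 158 with a 95% counting interval of 28.2 to 6285. Both rest on the single control count, in control 1. Without that library the controls were all at 0 and the fitted value, which then depends on the prior count, was 8.31 ± 1.14 (edgeR adjusted p = 0.0117). S100A8, its partner, had 6 to 12 counts in each coculture library and 0 in each control. Its coculture mean was 2.995 times what 3 counts in each control library would give. S100A12 had 1 count over the cocultures and 0 over the controls.

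Other leukocyte genes were also present in the coculture libraries. LYZ, the lysozyme of monocytes and granulocytes, was at 9.79 to 15.8 CPM in coculture and 0.0427 to 0.203 in controls, and CYBB, of the phagocyte oxidase, at 2.53 to 8.84 CPM in coculture and 0.0226 to 0.150 in controls. ITGAM, the integrin CD11b of myeloid cells, was at 0.526 to 1.71 CPM in coculture and 0 to 0.0247 in controls. MPO and CSF3R, of granules and of granulocyte growth, had 10 and 11 counts over the cocultures and 0 in each control. In coculture 1 to 6 these were 3, 0, 0, 3, 4 and 0 counts of MPO and 6, 0, 0, 1, 3 and 1 of CSF3R. Of the 20 neutrophil and PMN-MDSC markers, 7 had no count in any library, FCGR3B, CXCR1, CXCR2, ELANE, PRTN3, MMP8 and ARG1. CD177, of the same list, was at 0.211 to 1.05 CPM in coculture and 0.643 to 1.47 in controls. LTF was at 0 to 0.0917 CPM in coculture and 0 to 0.272 in controls. FPR1 was at 4.79 to 10.5 CPM in coculture and 5.96 to 9.32 in controls. The neutrophil list was thus met in part, with some markers higher in coculture, others overlapping the controls and others with no count. The 15 pan-leukocyte markers summed to 170 to 227 CPM in coculture and 148 to 170 CPM in controls, and to 40.1 to 61.4 CPM in coculture and 14.2 to 15.3 CPM in controls without LAPTM5, the most abundant of them. The 20 neutrophil and PMN-MDSC markers summed to 7.58 to 13.8 CPM in coculture and 7.50 to 10.3 CPM in controls, and to 1.43 to 5.06 CPM in coculture and 0.989 to 1.54 CPM in controls without FPR1. S100A8, S100A9, S100A12 and ITGAM are on this list, so its sums repeat their counts and are not separate from them. The 13 monocyte and macrophage markers summed to 104 to 184 CPM in coculture and 80.3 to 102 CPM in controls, and to 15.3 to 24.5 CPM in coculture and 0.534 to 0.994 CPM in controls without CD68. LYZ made up most of what was left without CD68 in each coculture library. CD14, CSF1R and MRC1 of this list were also higher in each coculture library than in each control. CD163, FCGR1A, FCGR3A, C1QA, C1QB and VSIG4 had at most 7 counts in any coculture library. In each list 1 gene that the controls also held made up most of the sum in controls. The part of leukocytes in the S100A8 and S100A9 counts was not tested. Per kb of transcript S100A9 averaged 1.61 ± 0.902 CPM in coculture, where S100A6 averaged 598 ± 141.

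S100A1, a member of heart and muscle, was split by library as S100A6 was. It was at 4.36 and 5.58 CPM in coculture 1 and 2 and at 0.903 to 1.85 CPM in coculture 3 to 6, against 2.71, 1.95, 3.27 and 3.23 CPM in controls 1 to 4 (log2 fold change -0.091 ± 0.45, edgeR adjusted p = 0.966). The controls lay between the 2 sets of cocultures, and without coculture 1 and 2 the log2 fold change was -0.97 ± 0.24 (edgeR adjusted p = 0.0590). Its gene lies within the span of S100A13 on the other strand, and 1176 counts of S100A1 stood beside 87271 of S100A13, so reads could have been assigned to either. S100A5 was at 0.429 ± 0.182 CPM in coculture and 0.557 ± 0.189 in controls (edgeR adjusted p = 0.790).

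Of the 10 members, 9 lie on the minus strand of chromosome 1, from S100A10 (151982910 to 151994238) and S100A11 (152032506 to 152037035) to S100A6 (153534599 to 153536241) and S100A13 (153618799 to 153634092), and S100P lies on chromosome 4 (6693839 to 6697170, plus strand), by the deposited table. The stretch with 500 kb on either side held 138 genes of that table, and 69 of them had 0 counts throughout. Between the pair S100A10 and S100A11 and the group from S100A6 to S100A13 lie the genes of the cornified envelope, most of them with no count. Chosen after their values were seen, 18 LCE genes summed to 4 counts and 10 SPRR genes to 1 count over all libraries. FLG, FLG-AS1 and S100A9 were the genes tested in that stretch.

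Of 26 other genes tested in the region, 24 were not called, and the median log2 fold change of the 26 was -0.017. FLG was called lower, where 0.186% of all genes were, and S100A9 higher, where 1.14% were. Since S100A9 passed the filter through the coculture libraries alone, no share of the region is read from these calls. INTS3, of the integrator complex, had a log2 fold change of -1.29 ± 0.36 (edgeR adjusted p = 0.159), and TDRKH, a piRNA factor, and GATAD2B, of the NuRD complex, had 0.35 ± 0.20 and -0.52 ± 0.36 (edgeR adjusted p = 0.630 and 0.687). CHTOP, which overlaps the S100A13 span on the other strand, had a log2 fold change of 0.0088 ± 0.087 (edgeR adjusted p = 0.982).

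**Figure D4:**
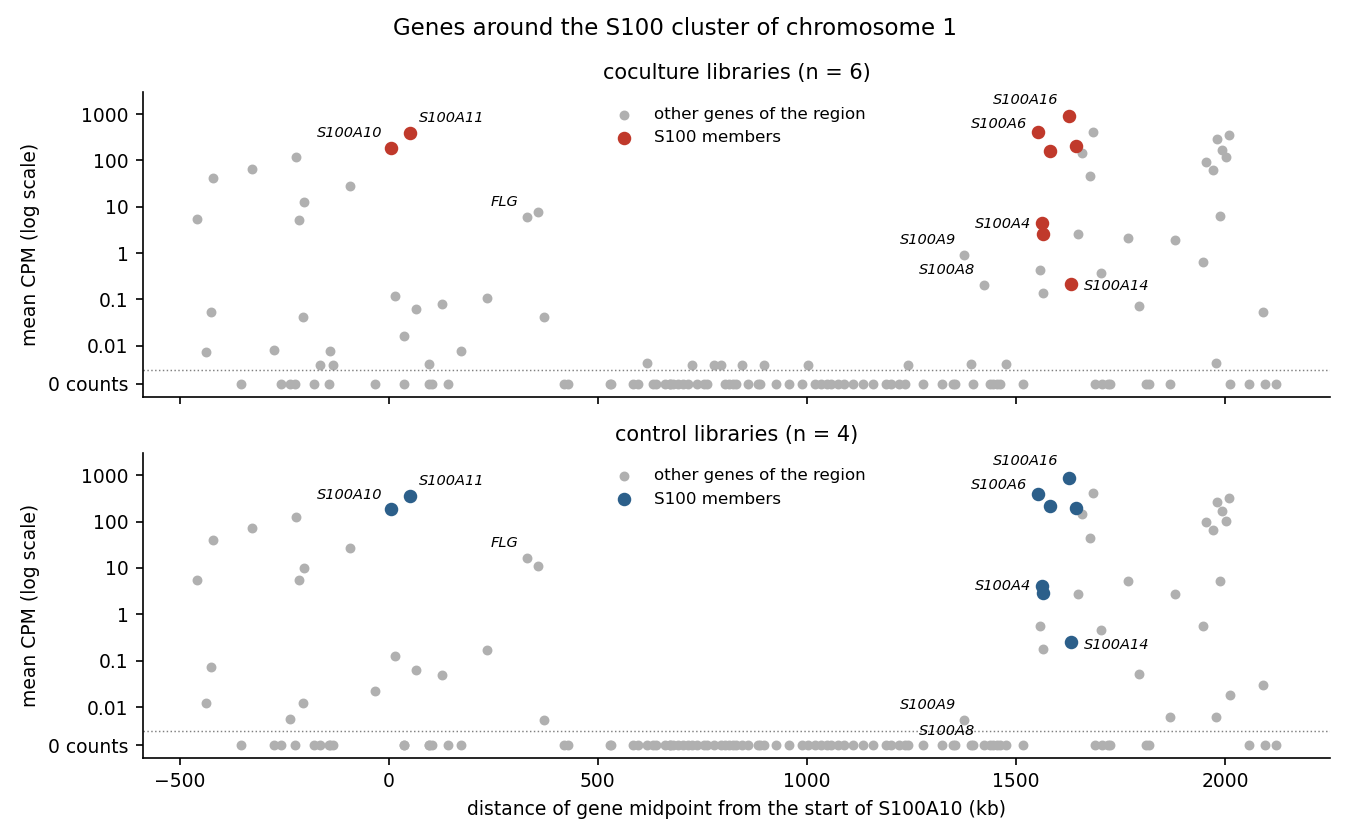
Mean CPM (log axis, with 0 counts below the dotted line) of the 138 genes around the chromosome 1 cluster against the distance of each gene's midpoint from the start of S100A10, in the coculture libraries (upper panel) and the control libraries (lower panel). The 9 S100 members are coloured and the other genes grey. The members sit on either side of a stretch in which most genes have few or no counts, and S100A8 is at 0 in controls but not in coculture.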

How the data were processed

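Gene counts of 6 coculture and 4 control RNA-seq libraries were used, and the groups were taken from the titles and treatment labels. The authors deposited raw read counts per gene symbol, whole numbers with totals that differ, with a transcript length and coordinates for each gene. The submitters' processing notes name GRCh38.p10, HISAT2 2.0.4 and BWA without roles. Which tool counted reads, with which annotation and strand setting, is not stated in the labels or headers. Overlapping genes on opposite strands and near-identical copies are therefore uncertain (5 rows of S100A11 pseudogenes held 7 counts, beside 164787 of S100A11). No value column was left unused. The miRNA counts were not used here.

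Counts were fitted in R 4.3.3 with edgeR 4.0.16 (TMM, filterByExpr with its minimum count of 10, robust quasi-likelihood test of coculture minus control), over 15629 genes with Benjamini-Hochberg adjustment at 0.05. The scripts were tested on simulated data. Each SE is the size of the log2 fold change divided by the square root of F. CPM uses TMM library sizes, and log2 CPM a prior count of 2. Floors of 3 counts and 95% intervals of counts cover counting error only. The smallest chi-square per degree of freedom between libraries of a group was 7.31, so no pair agreed within sampling noise. DESeq2 1.42.0 and limma 3.58.1 (voom), other scalings, no filter, a replicate block and left-out libraries were the alternatives. Named genes are all 10 members, up to 6 by p of the lists of other S100 genes, partners, EF-hand comparators and neighbours, a fixed set of partners and the 4 nearest patterns of the 2 members with the smallest p, except for a pair not reported here. Marker genes of cell types were named after their values were seen, and sums without the most abundant marker were added then. The members, lists, tests and alternatives were chosen with earlier results of these data known.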

Additional observations from a re-analysis of the deposited data

Results flagged for a closer look

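A library was listed here where its gap to the nearest of its group exceeded Dixon's limit, which chance alone passes in about 1 in 20 groups. Of 19 groups looked at, 3 held such a library. S100A10 was at 144 CPM in coculture 1, below the next lowest coculture library at 187 CPM, and at 157 CPM in control 1, below the next lowest control at 194 CPM. The 2 libraries share the number 1, and S100A10 did not differ between the groups with or without either of them at an edgeR adjusted p under 0.05. S100P was at 0.0238 CPM in coculture 3, from a single count, where the other 5 coculture libraries had 0 counts. A lone count beside zeros always passes the limit, so nothing is read from this flag.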

How the results depend on the processing

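No member was called by any of the 18 alternatives to the fit reported, with 146 of the 162 recomputed log2 fold changes keeping their sign and 16 turning it, all of genes within 0.064 of 0 on the log2 scale. The cause of these turns was not tested. Without coculture 1 and 2 the log2 fold change was -0.26 for S100A4, -0.21 for S100A6, -0.020 for S100A13 and -0.064 for S100A16. S100A6 was at -0.0059 with limma-voom. S100A10 was at -0.023 with the replicate block and at -0.018 in replicates 1 to 4 without it. Leaving out 1 library gave -0.16 to 0.21 for S100A4, -0.089 to 0.098 for S100A6, -0.050 to 0.096 for S100A10 and -0.020 to 0.057 for S100A16. S100A2, S100A3, S100A11 and S100A14 kept their sign throughout, with S100A2 at -0.54 to -0.26.

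Counts over all genes moved more. Genes called were 207 (178 higher, 29 lower), and 439 (333 higher, 106 lower) with DESeq2, 322 without coculture 1 and 2 (112 lower), 110 (100 higher, 10 lower) with the replicate block and 16 lower in replicates 1 to 4. Leaving out 1 library gave 116 to 227 genes (112 to 204 higher, 4 to 36 lower). Deviations of same-numbered libraries had correlations of 0.35, -0.083, 0.20 and 0.14 for numbers 1 to 4. Those of differently numbered libraries ran from -0.28 (coculture 3 with control 1) to 0.30 (coculture 2 with control 1), with 0.18 for coculture 4 with control 3. Of the coculture libraries, 2 of 4 were nearest to their own number. The numbers were not taken to pair the libraries. Depth limits S100P and S100A14, and levels per kb rest on the deposited lengths, whose rule is not stated.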
